A study of Mus musculus with 23 samples.

Results

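The regions described here are the 800 autosomal sites with the strongest NR5A2 CUT&RUN signal among 7938 autosomal regions that the authors classed as bound by NR5A2 and accessible, chosen by that measured signal. They make up 10.1% of those 7938 regions, in a table of 16958 NR5A2-bound regions in all, with coordinates in the mouse build mm10. The signal that chose them ranged from 10.1 to 65.1 RPKM (a read density scaled to library depth) with a median of 12.2 RPKM, against a median of 4.68 RPKM in the 7138 other open autosomal regions. These values only describe how the regions were picked. The last sites taken in, 684 kb from Man1a and inside Vps41, had 10.103 and 10.095 RPKM, and the first left out, near Ppp2r5c and Cldn4, had 10.094 and 10.081 RPKM. ATAC-seq, in which a transposase cuts open DNA and adds sequencing adapters, was done on mouse 8-cell embryos that had or lacked Nr5a2. Of the maternal-zygotic (mz) series, labelled mz_NrHet and mz_NrKO, 8 heterozygous and 13 knockout embryos were taken directly at that stage, each as 1 library. In the inducible series, embryos were taken as early 2-cell embryos 30 h after hCG and cultured for 45 h. The treated pool (iNrKO_plus_Tam_NrKO) received 750 nM 4-hydroxytamoxifen for the first 24 h, and the untreated pool (iNrKO_minus_Tam_Nrpp) did not.

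The mz controls are heterozygotes, and the labels do not say whether they carried maternal Nr5a2. The inducible series has 1 pool in each arm and an arm given the drug without the inducible allele was not analysed here, so the drug and the deletion cannot be told apart. The series also differ in date, in culture and in single embryos against pools. The file gives 1 merged value per group, so no value here has a spread between embryos. The deletion itself was not checked here.

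NR5A2 belongs to the nuclear receptors and contacts DNA as a single molecule, at an extended response element in which the bases TC precede the core AAGGNCA, where N is any base and C or T are preferred. It is known for roles in liver, ovary and pluripotent cells, and in mouse embryos for gene activation in the first cleavage stages. The 8-cell stage precedes the separation of inner cell mass and trophectoderm.

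Beside each CUT&RUN summit the table lists a position that the authors recentred on an NR5A2 motif. For 769 of the 800 sites (96.1%) this position differs from the summit, here called a moved summit, against 86.6% of the other open regions. The share was 98.5% among the 800 most strongly bound closed autosomal regions. Of the strongest sites, 27 (3.38%) overlapped a RefSeq promoter window (GRCm38.p6, 250 bases before to 50 after a gene's start), and for 13 of these the listed position lay inside the window. These 13 are the only sites whose sequence could be read here, and 10 of them are shown to let the motif be seen at positions the authors chose. In each line the capitals mark 9 bases, from 1 before to 7 after the listed position on the chromosome, read on the strand that matches TCAAGGNCA better; this placement was set after seeing where matches fell. The first 8 sites had a moved summit. Each lay upstream of the named gene's start and held TCAAGGNCA with at most 1 mismatch.
Osbpl2 (chr2:180119077-180119117, plus strand): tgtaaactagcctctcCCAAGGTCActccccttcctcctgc
1110020A21Rik (chr17:84957734-84957774, minus strand): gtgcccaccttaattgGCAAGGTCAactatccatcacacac
Mtrf1l (chr10:5824127-5824167, minus strand): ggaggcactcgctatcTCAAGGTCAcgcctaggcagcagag
Msrb1 (chr17:24736375-24736415, minus strand): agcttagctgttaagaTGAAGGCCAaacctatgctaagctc
Khdc3 (chr9:73102174-73102214, minus strand): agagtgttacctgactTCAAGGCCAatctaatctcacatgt
Hexdc (chr11:121204356-121204396, plus strand): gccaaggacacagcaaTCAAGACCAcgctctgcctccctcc
Elovl6 (chr3:129532165-129532205, minus strand): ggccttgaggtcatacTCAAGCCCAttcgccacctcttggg
Gm40987 (chr13:65991148-65991188, plus strand): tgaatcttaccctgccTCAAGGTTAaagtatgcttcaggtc

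For the next pair of sites the summit had not moved, and the same 9 bases around it differ from TCAAGGNCA at 4 positions at Wsb1 and at 5 at Ints3. Both lines still hold the core AAGGNCA outside the capitals, as printed at Ints3 and as its reverse complement at Wsb1.
Wsb1 (chr11:79254865-79254905, minus strand): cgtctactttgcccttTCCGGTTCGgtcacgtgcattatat
Ints3 (chr3:90433810-90433850, minus strand): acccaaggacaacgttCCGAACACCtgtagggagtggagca

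Over all sites that could be read, 9 of 9 strong sites with a moved summit held TCAAGGNCA with 0 or 1 mismatch, as did 103 of 103 moved summits among all other bound regions. An exact match was present in 2 of the 9, at Mtrf1l and Khdc3, and in 28 of the 103. Of unmoved summits, 0 of 4 strong sites and 2 of 107 other regions had at most 1 mismatch in these bases at the listed position, and bases further away were not counted. The letters AAGGNCA, searched on both strands, were in 18 of the 31 promoter windows that strong sites overlapped (58.1%), in 27.0% of the 478 windows overlapped by other open regions and in 20.3% of all 32851 windows. The longer TCAAGGNCA, which contains AAGGNCA, was in 16.1%, 5.44% and 1.62% of the same windows. The 31 windows belong to 27 sites and some share bases, so a motif can be counted more than once. Of the 5 strong-site windows with the longer form, those of Elovl6 and Gm35986 overlap at 1 site. A match is a description of the letters and not evidence of a functional site.

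The 250 bases before the start of Khdc3, which encodes a protein of the oocyte's subcortical maternal complex, and of Msrb1, a selenoprotein that reduces oxidised methionine, are shown because the strong sites there fell in mz knockouts. They are written on the gene's strand, with the 9 bases in capitals, so that both sites appear as the reverse complement of the lines above.
Khdc3 (chr9:73102148-73102397, plus strand): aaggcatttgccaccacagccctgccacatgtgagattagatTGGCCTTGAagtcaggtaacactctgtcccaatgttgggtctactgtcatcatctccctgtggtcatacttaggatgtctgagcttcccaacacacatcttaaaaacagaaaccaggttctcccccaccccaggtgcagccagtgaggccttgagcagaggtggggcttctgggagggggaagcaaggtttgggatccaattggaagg
Msrb1 (chr17:24736343-24736592, plus strand): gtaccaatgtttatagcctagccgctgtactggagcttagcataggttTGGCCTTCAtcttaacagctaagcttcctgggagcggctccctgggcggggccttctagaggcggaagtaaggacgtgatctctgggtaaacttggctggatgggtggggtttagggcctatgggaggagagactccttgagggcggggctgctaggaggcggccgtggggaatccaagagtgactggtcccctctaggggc

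At the Khdc3 site (chr9:73102066-73102360) the ATAC-seq signal was 16.4 RPKM in heterozygotes, 4.66 RPKM in mz knockouts, 5.88 RPKM in the untreated pool and 2.72 RPKM in the treated pool. The mz ratio of 0.283 passed the exact binomial test (adjusted p = 0.0196) and the inducible ratio of 0.463 did not (adjusted p = 0.108). At the Msrb1 site the values were 18.8, 6.10, 8.32 and 5.96 RPKM in the same order. Its mz ratio of 0.324 passed (adjusted p = 0.0205, exact binomial test) and its inducible ratio of 0.715 did not. Both sites were picked for their fall in the mz series, so their low ratios say nothing on the motif. The other readable sites with a moved summit had mz ratios of 0.589 (Osbpl2), 0.623 (Mtrf1l), 0.733 (2200002J24Rik), 0.861 (1110020A21Rik), 1.10 (Hexdc), 1.56 (Gm40987) and 1.57 (Elovl6). None of these ratios passed. At Mtrf1l, which encodes a mitochondrial translation release factor and holds an exact motif, the values were 28.2, 17.6, 14.5 and 12.4 RPKM and neither ratio passed.

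The ATAC-seq values were whole multiples of 1 read's worth in each column, and reads were recovered by division. The 800 regions held 11075 reads in the heterozygote column, 11676 in the mz knockout column, 26413 without and 17209 with treatment in the pools. The median site had 11 reads in either mz column (95% Poisson interval 5.49 to 19.7 reads, exact) and 29 and 18 reads in the pools. All intervals and tests below are on these reads. They compare merged libraries, not the conditions, and cover counting error only, so an adjusted p says nothing on variation between embryos. Neighbouring regions may share reads, since the sources used here do not give the window in which the authors counted.

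The strongest sites were also more open than other open sites in every column. Their ATAC-seq signal ran from 0 to 101 RPKM with a median of 6.46 RPKM in heterozygotes, and from 0 to 112.6 RPKM with a median of 3.95 RPKM in mz knockouts. In the untreated pool it ran from 0.490 to 42.9 RPKM (median 4.73 RPKM), and after treatment from 0.170 to 37.9 RPKM (median 3.06 RPKM). The medians of the other open regions were 4.11, 2.51, 3.59 and 2.38 RPKM. The knockout column had the lower median in both series and in both sets of regions, and the spreads of all columns overlapped widely. Within the 800 regions, CUT&RUN signal and control accessibility were only loosely related across regions (Spearman 0.172 for heterozygotes and 0.131 for the untreated pool, n = 800 regions of 1 column each). Of the 800 regions, 171 (21.4%) were among the 800 most open autosomal regions of the open class by the heterozygote column and 162 (20.2%) by the untreated pool, where 800 regions are 10.1% of the class.

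**Figure D1:**
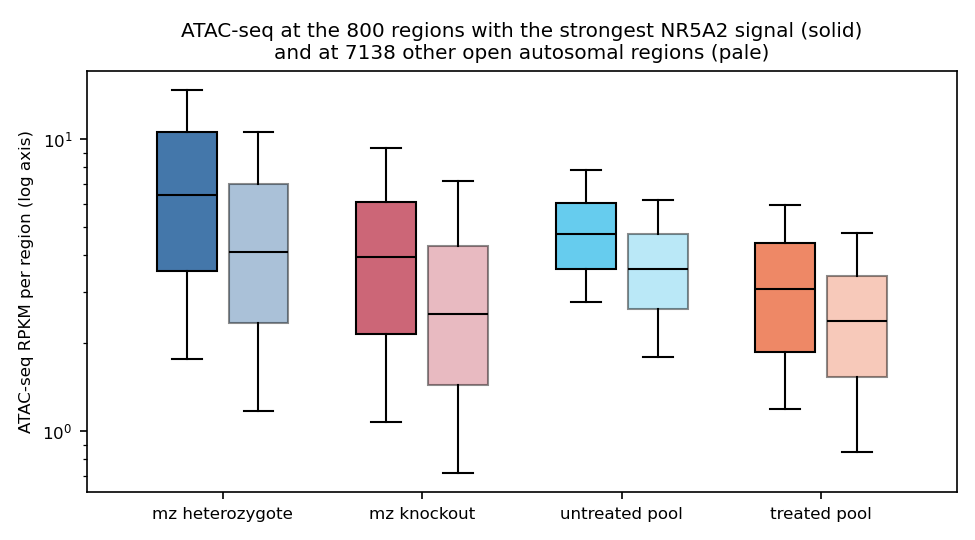
ATAC-seq RPKM per region (log axis) in the 4 merged columns for the 800 regions with the strongest NR5A2 signal (solid boxes) and 7138 other open autosomal regions (pale boxes). Lines mark medians, boxes the middle 50% of regions and whiskers the 10th to the 90th percentile. The solid boxes sit above the pale ones in each column, and the knockout columns sit below their controls.

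Accessibility at the 800 sites was lower in the knockout column of both series. Summed over the sites, the mz ratio of knockout over heterozygote RPKM was 0.644 (95% interval 0.627 to 0.661, Clopper-Pearson on the reads), and the inducible ratio of treated over untreated was 0.679 (0.666 to 0.692). The other open autosomal regions had ratios of 0.654 (0.647 to 0.662) and 0.698 (0.693 to 0.704), so most of the lower signal was common to both sets. After the columns were put on one summed level over the table, the ratios of the strongest sites were 0.963 and 0.979, and which level is right cannot be told from these files. The strongest sites were below them by a log2 difference of −0.024 in the mz series (95% interval −0.065 to 0.017) and of −0.040 in the inducible series (−0.070 to −0.010). Against the 800 most weakly bound open regions, with ratios of 0.702 and 0.754, the differences were −0.13 (−0.19 to −0.063) and −0.15 (−0.20 to −0.11). Against the 800 most strongly bound closed regions, with ratios of 0.676 and 0.612, the strongest open sites differed by −0.071 in the mz series (−0.15 to 0.0074) and by 0.15 in the inducible series (0.10 to 0.20).

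Medians over regions gave larger differences from the other and the weakest open regions than sums did. The median log2 ratio of RPKM + 1, a scale on which low regions appear to change less, was −0.59 (mz) and −0.50 (inducible) at the strongest sites. It was −0.46 and −0.40 at the other open regions and −0.32 and −0.35 over all 16958 regions. Against the strongest closed regions the medians differed by −0.25 in the mz series and by −0.00076 in the inducible one, where the sums had differed by 0.15. With regions matched in 5 classes of the other series' control level, the summed ratios of the strongest sites differed from those of other open regions by −0.064 in the mz series (−0.11 to −0.019) and by −0.10 in the inducible one (−0.13 to −0.068).

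A small group of very high sites weighed on the sums. Of the 800 sites, 13 had a mean above 20 RPKM over the 4 columns. Of these, 11 have Sfi1, which encodes a centrin-binding centrosomal protein, as their nearest gene, all within chr11:3127104-3181401, and the others lie inside Lars2, a mitochondrial leucyl-tRNA synthetase gene, and 17.1 kb from AA467197. These 13 sites held 10.3% of the reads of the 800 sites in heterozygotes, 15.3% in mz knockouts, 9.14% in the untreated and 11.8% in the treated pool. Their mz ratio was 0.956 (0.887 to 1.03) and their inducible ratio 0.879 (0.829 to 0.933), far above the values of the other strong sites. How reads map at these sites, where near-identical copies may exist, was not tested, and their values are uncertain.

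Without these 13 sites the mz ratio was 0.608 (0.591 to 0.625) and the inducible ratio 0.659 (0.646 to 0.673). With regions above 20 RPKM left out of both sets, the difference from other open regions became −0.10 in the mz series (−0.15 to −0.061) and −0.082 in the inducible one (−0.11 to −0.050). The Sfi1 sites were not alike among themselves. The site with the highest CUT&RUN signal of the table's open autosomal regions (65.1 RPKM, chr11:3150998-3151572) fell from 101 RPKM in heterozygotes to 53.4 RPKM in mz knockouts, and its neighbour at chr11:3153897-3154064 from 81.7 to 52.0 RPKM (exact binomial test, adjusted p = 4.82e-05 and 0.0214). The other 9 Sfi1 sites had mz ratios from 0.758 to 1.63, and none passed. Neither fall held after a scaling that sets the median log2 ratio over the table to 0 (adjusted p = 0.0580 and 0.603, exact binomial test).

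Ranked by CUT&RUN signal within the 800 and split into 4 groups of 200, the mz ratios were 0.661, 0.643, 0.636 and 0.624 from the strongest to the weakest, and the inducible ratios 0.703, 0.686, 0.681 and 0.636. The strongest group thus differed from the weakest by 0.081 on the log2 scale in the mz series (−0.024 to 0.19) and by 0.14 in the inducible series (0.068 to 0.22). Of the 13 very high sites, 11 are in the strongest group. Without them its mz ratio was 0.571 (0.540 to 0.602), the mz difference turned to −0.13 (−0.24 to −0.016), and the inducible difference was 0.016 (−0.067 to 0.10). In the mz series the 4 ratios then ran from 0.571 through 0.608 and 0.636 to 0.624.

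**Figure D2:**
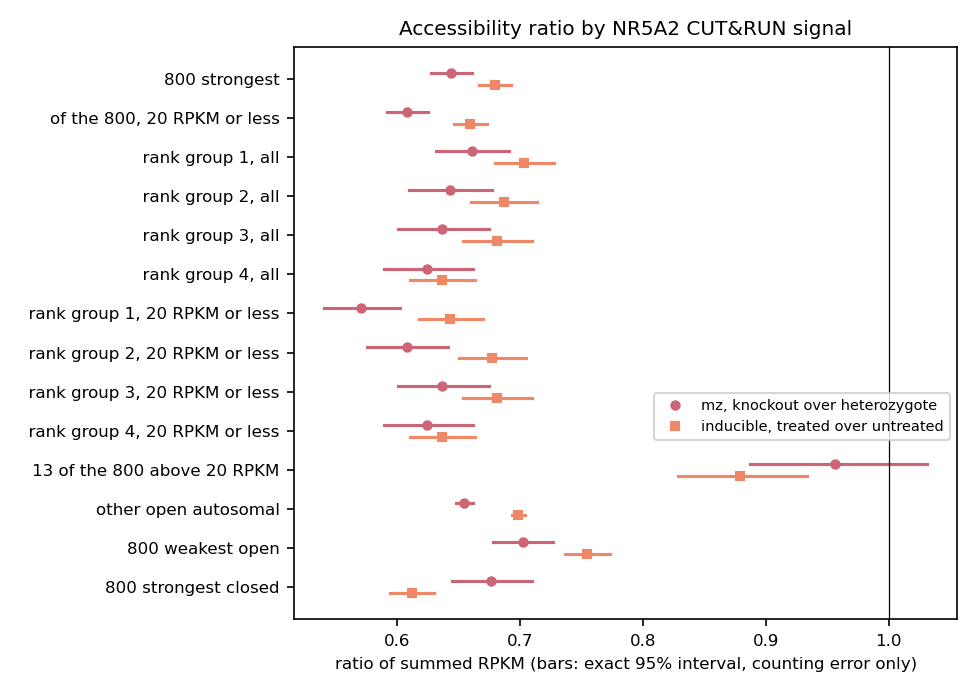
Ratio of summed RPKM, knockout over control, in the mz series (circles) and the inducible series (squares) for the 800 sites, their 4 groups of 200 by CUT&RUN rank with and without the 13 sites above 20 RPKM, and 3 other sets. Bars are exact 95% intervals for counting error only. The 13 very high sites stand at 0.956 and 0.879, and the strongest group moves from 0.661 to 0.571 in the mz series without them.

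At an adjusted p under 0.05 (exact binomial test, Benjamini-Hochberg over the 16958 regions), 49 of the 800 sites were lower in the mz knockout column (6.125%), where 1.73% of all regions were. In the inducible series 117 were lower in the treated pool (14.6%), against 6.37% of all regions. The other open regions had 2.79% and 9.68%. No site was higher in mz knockouts by this test (0.0236% of all regions were). At an unadjusted p under 0.05, 7 were higher (0.875%), close to the 0.708% of all regions. A Fisher exact test against all other reads gave 5 higher. 1 site was higher in the treated pool, against 0.0767% of all regions. The test was made on RPKM as deposited and so counts the shift that all regions share. With the median log2 ratio set to 0, 7 sites were lower and 2 higher in the mz series, and 23 lower and 2 higher in the inducible series. No share over all regions is given for the scaled and Fisher counts, so they only show how calls depend on the level. The strong sites hold more reads than other regions, and the test finds more where reads are many. Among the 20% of open regions with the most signal in the untreated pool, 27 of 315 strong sites and 64 of 1273 other open regions were lower in mz knockouts. Over the 5 such classes of the untreated pool the share of strong sites lower in mz knockouts was above that of other open regions in 4 and below it in the middle one (4 of 157 against 41 of 1430). In the 5 classes of heterozygote signal the share lower in the treated pool was above that of other open regions in each, from 22 of 93 against 129 of 1494 in the lowest to 31 of 295 against 121 of 1293 in the highest. These classes do not make the tested reads equal. In each, strong sites had the higher mean control signal in the tested series. In the highest class it was 7.39 against 5.94 RPKM in the untreated pool and 12.3 against 10.4 RPKM in heterozygotes. The excess of calls may thus still reflect read number, which was not tested.

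By size alone, the mz ratio was under 2/3 at 461 of the 800 sites (57.6%), against 49.2% of all and 51.8% of other open regions. The inducible ratio was under 2/3 at 429 (53.6%), against 48.6% and 48.4%. Both ratios were under 2/3 at 285 sites (35.6%), against 27.1% of all and 29.5% of other open regions, and both were 1 or above at 26 (3.25%), against 6.81% and 6.40%. Of the 800 most strongly bound closed regions, 52.25% had a mz and 60.4% an inducible ratio under 2/3. Both ratios were under 2/3 at 35.1% of them and 1 or above at 5.50%, so low ratios are not particular to the open sites. In the authors' deposited table, which classes each region on both ratios, 415 of the 800 sites (51.9%) are losing, 351 maintaining and 34 increasing accessibility (4.25%). The corresponding shares of losing and increasing sites among other open regions are 45.2% and 7.90%. Among the 800 most strongly bound closed regions they are 48.75% and 16.4%.

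At the 800 sites, calls in one series were about as frequent with as without a call in the other. Of the 49 sites lower in mz knockouts, 7 were also lower in the treated pool, which is 14.3% of them and 5.98% of the 117 (0.875% of the 800, against 0.413% of all regions). Of the 751 sites not lower in mz knockouts, 14.6% were lower in the treated pool, and of the 683 not lower in the treated pool, 6.15% were lower in mz knockouts. Among the other open regions 55 were lower in both, 27.6% of the 199 mz calls and 7.96% of the 691 inducible calls, against 9.17% and 2.23% of the regions without the other call. The ratio in the series that did not make the call was nonetheless low. The 49 mz sites had an inducible ratio of 0.626 (0.584 to 0.672), with 47 of 49 below 1, while the other 751 sites had 0.684 (0.670 to 0.698). The 117 inducible sites had a mz ratio of 0.469 (0.431 to 0.510), with 100 of 117 below 1, against 0.666 (0.648 to 0.685) at the other 683 sites. Among the other open regions, the 199 mz calls had an inducible ratio of 0.523 and the 691 inducible calls a mz ratio of 0.451. The columns compared here were not the ones used for the call. Across the 800 sites, the log2 ratios of both series had a Spearman correlation of 0.264 (n = 800 regions of the same 4 columns). Across the other open autosomal regions it was 0.240.

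**Figure D3:**
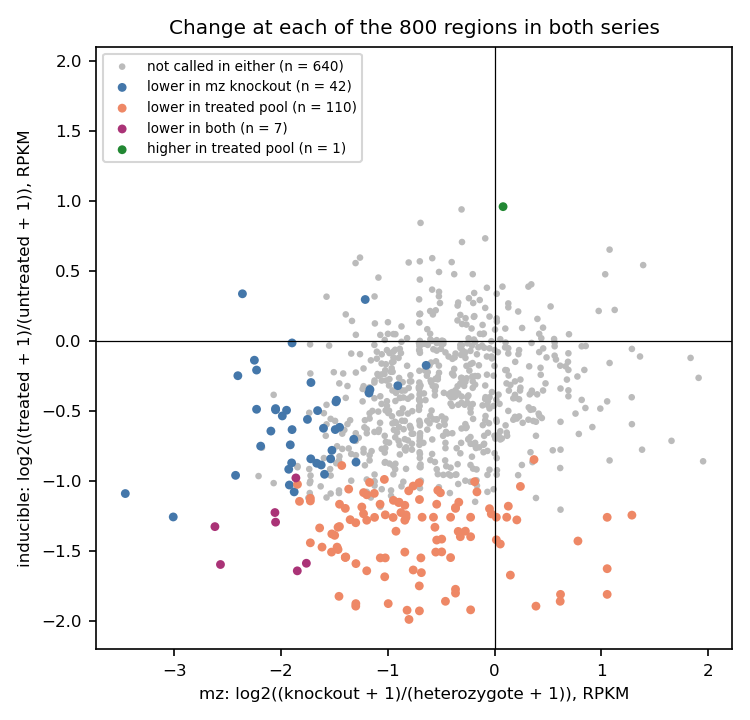
Log2 ratio of knockout over control on the log2(RPKM + 1) scale at each of the 800 sites, mz series on the horizontal and inducible series on the vertical axis. Colours mark sites passing the exact binomial test. Most sites lie below 0 on both axes, and 7 passed as lower in both series.

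The 12 sites with the highest CUT&RUN signal were, by nearest gene, 2 at Sfi1 and 1 each at or near LOC115489542, Cnnm4, Amd1, Rreb1, Uqcc1, Gata6, 1700001O22Rik, Prr12, Mapk4 and Cilp. Cnnm4, which encodes a magnesium transport protein, lay 5545 bp from its site (chr1:36465891-36466200, CUT&RUN 30.3 RPKM), where the values were 7.05 RPKM in heterozygotes, 2.51 RPKM in mz knockouts, 10.6 RPKM in the untreated pool and 2.72 RPKM after treatment. The treated pool was lower, at a ratio of 0.257 (adjusted p = 7.19e-05, exact binomial test), a fall that held under both scalings of the columns (adjusted p = 0.00770 and 0.0316, exact binomial test). The site near 1700001O22Rik (chr2:30747781-30748079) had 11.7, 3.23, 6.53 and 2.89 RPKM in the same order, and its mz ratio of 0.275 just passed (adjusted p = 0.0496, exact binomial test) and did not under either scaling (adjusted p = 0.292 and 0.582, exact binomial test).

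The site nearest to Gata6, a transcription factor gene of the primitive endoderm, lay 74.8 kb away (chr18:10977433-10978093) and had 15.3, 5.74, 4.73 and 2.55 RPKM, with ratios of 0.376 and 0.539 that did not pass. A site near Mapk4, an atypical MAP kinase gene, was low in both knockout columns with 4.11, 0.717, 3.75 and 1.19 RPKM, and did not pass either. At other sites of this group the pools had similar values. At the site 36.8 kb from Rreb1, which encodes a zinc finger transcription factor, the pools had 5.88 and 5.79 RPKM, and inside Uqcc1, an assembly factor of respiratory complex III, 6.53 and 6.64 RPKM, while the mz values were 17.6 and 12.2 RPKM and 6.46 and 3.23 RPKM. The site with the second highest CUT&RUN signal (49.1 RPKM), inside LOC115489542, had 1 read in the heterozygote column and 4 in the mz knockout column, and 3.92 and 1.87 RPKM in the pools. How reads map at it was not tested.

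Sites lower in both series were 7, at or near Hs6st1, Ptma, Cux1, Tent5c, Mex3c, Apaf1 and Fxr1. Inside Hs6st1, a heparan sulfate sulfotransferase gene (chr1:36077189-36077563), the signal went from 20.6 to 2.51 RPKM in mz knockouts and from 13.9 to 4.93 RPKM after treatment. The ratios were 0.122 (adjusted p = 1.11e-05) and 0.356 (adjusted p = 0.000233, exact binomial test). A site 34.2 kb from Ptma, the prothymosin alpha gene (chr1:86492129-86492419), had 18.2 and 4.66 RPKM in the mz columns and 8.65 and 2.21 RPKM in the pools, a ratio of 0.256 in each. Relative to its control, each knockout column was thus equally low there.

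Inside Cux1, a homeodomain transcription factor gene (chr5:136553309-136553570), the mz signal went from 7.05 to 0.359 RPKM, which is 12 reads against 1, and the inducible signal from 4.08 to 0.681 RPKM. The site near Tent5c, a poly(A) polymerase gene (chr3:100418522-100418970), had ratios of 0.222 and 0.214. Mex3c and Fxr1 encode RNA-binding proteins and Apaf1 the core of the apoptosome, and their sites had mz ratios from 0.141 to 0.214 and inducible ratios from 0.310 to 0.444. After scaling to the median log2 ratio, the site in Hs6st1 still passed in both series (adjusted p = 0.000760 and 0.0210, exact binomial test), those near Ptma and Tent5c passed only in the inducible series, and the other 4 in neither. With the summed ratio set to 1, Hs6st1 passed only in the mz series (adjusted p = 0.00535 and 0.0918, exact binomial test) and the other 6 in neither, so no site was lower in both.

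**Figure D4:**
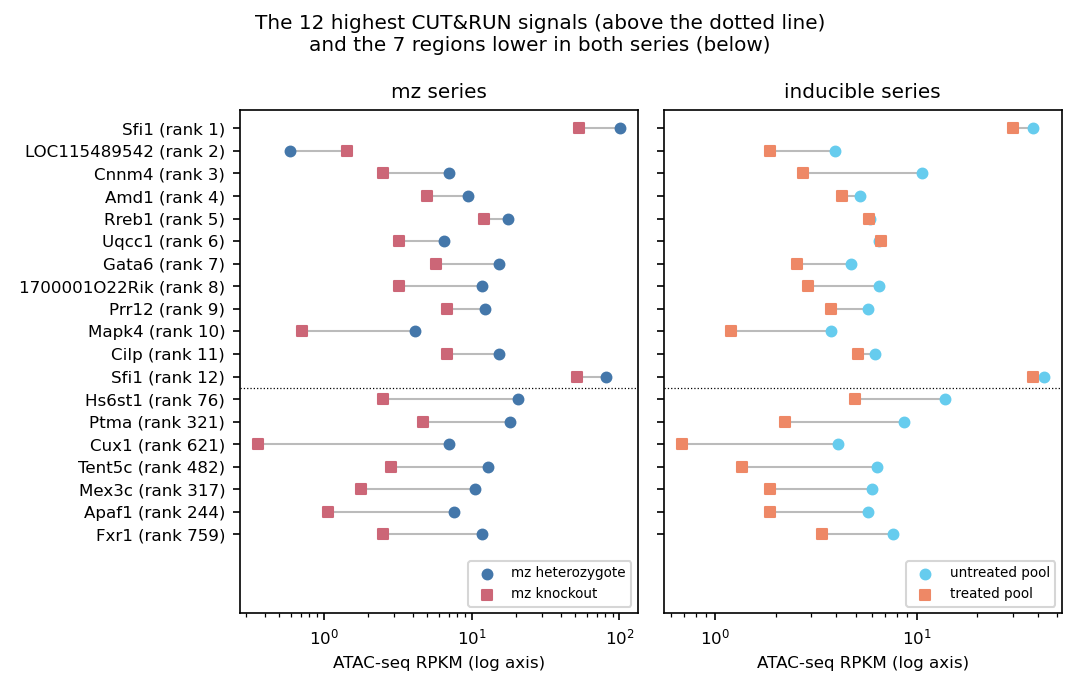
ATAC-seq RPKM (log axis) at the 12 sites with the highest CUT&RUN signal, above the dotted line, and at the 7 sites lower in both series, below it, labelled by nearest gene and rank of CUT&RUN signal. Circles are controls and squares knockouts. At the 7 lower sites every square lies well to the left of its circle, while the pair of Sfi1 sites stands at the far right in both panels.

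The sites with the smallest p in each series were looked at after their values were seen. In the mz series they included a site inside Irak2, an interleukin-1 receptor signalling kinase gene (chr6:113671387-113671598), with 9.99 RPKM in heterozygotes and 0 reads in knockouts, which allows up to 1.08 RPKM (adjusted p = 0.000106, exact binomial test). Inside C1qbp, a mitochondrial matrix protein gene (chr11:70980884-70981294), the signal fell from 18.8 to 4.30 RPKM, and near Slc4a1, the anion exchanger of red cells (chr11:102337623-102338187), from 22.9 to 6.10 RPKM (exact binomial test, adjusted p = 0.00195 and 0.00167). Sites near the transcription factor genes Grhl2, of epithelia (chr15:37196009-37196220), and Cebpa (chr7:35116578-35116813) had mz ratios of 0.136 and 0.323. In the inducible series these 2 sites had ratios of 0.894 and 0.599 and did not pass.

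In the inducible series the smallest p values came from sites near Cnnm4 and Nme1. At Nme1, a nucleoside diphosphate kinase gene 9295 bp from its site (chr11:93977285-93977686), the pools had 7.02 and 1.02 RPKM and the mz columns 17.6 and 9.68 RPKM. The treated pool was lower (ratio 0.145, adjusted p = 7.19e-05, exact binomial test), and the mz ratio of 0.549 did not pass. Inside Rad51c, a gene of recombinational DNA repair (chr11:87377697-87377958), the pools had 8.81 and 1.87 RPKM, and near Pim1, a serine/threonine kinase gene (chr17:29496797-29497475), 8.98 and 2.21 RPKM. Both passed in the treated pool (adjusted p = 0.000106 and 0.000253, exact binomial test), with mz ratios of 0.712 and 0.562 that did not. Inside Kdm8, a Jumonji-domain oxygenase gene (chr7:125460062-125460375), the treated pool had 0.851 RPKM against 5.88 RPKM (adjusted p = 0.000366, exact binomial test). The mz knockout column had 1.08 against 4.11 RPKM, which is 3 reads against 7, and did not pass (adjusted p = 0.391, exact binomial test).

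The single site higher in the treated pool lay 785 bp from Gnb1l, a WD-repeat protein gene (chr16:18496538-18496892), with 3.10 RPKM in the untreated pool and 6.98 RPKM after treatment (ratio 2.25, adjusted p = 0.0450, exact binomial test). In the mz columns it had 4.70 and 5.02 RPKM. Among the sites with both ratios at 1 or above, the 6 with the most control reads were 1 in Sfi1 and sites at or near Pin1rt1, Cic, 1700016D06Rik, Syce3 and Dnajb9. The site near Dnajb9, which encodes a chaperone of the endoplasmic reticulum (chr12:44212446-44213043), had the sixteenth highest CUT&RUN signal and values of 9.40, 12.2, 4.90 and 6.81 RPKM. The site near Cic, a transcriptional repressor gene (chr7:25265801-25266112), had 9.40, 11.1, 6.04 and 7.15 RPKM, and the site in Syce3, a synaptonemal complex gene (chr15:89399888-89400149), 6.46, 8.97, 5.88 and 6.13 RPKM. None of the 6 passed the test in either series. They were picked for ratios of 1 or above, so these ratios do not show that accessibility was kept. The intervals for counting error reached below 1, except in the mz series at the Sfi1 site (1.02 to 1.84). At Syce3 they ran from 0.659 to 3.12 (mz) and from 0.638 to 1.70 (inducible).

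Lists of genes with known roles were read at sites that have a list gene nearest or within 50 kb. Inner cell mass and pluripotency genes had 9 of the strong sites, next to Dppa4, Fgf4, Klf4, Klf5, Prdm14, Tbx3 and Tfcp2l1. Of these, 7 had a mz ratio under 2/3 and 7 an inducible ratio under 2/3, none passed the test in either series, and the median log2 ratios were −0.70 and −0.65. Open regions of the same list outside the 800 had medians of −0.62 and −0.48, and 57.6% and 53.6% of the 800 sites were under 2/3. At the site near Prdm14, a regulator of the germ line and of naive pluripotency (chr1:13073766-13074095), the values were 3.52, 1.08, 5.22 and 2.04 RPKM. The site near Tfcp2l1, a transcription factor of the naive state (chr1:118618962-118619287), had 4.70, 1.08, 3.59 and 1.19 RPKM, and the site near Klf5 (chr14:99355582-99355814) 8.81, 2.51, 4.57 and 2.04 RPKM. All 3 had ratios between 0.229 and 0.447, from 3 to 32 reads a column.

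Trophectoderm genes had 3 sites, of which the one inside Ptges, the prostaglandin E synthase gene (chr2:30893991-30894215), fell from 4.24 to 1.36 RPKM in the treated pool (exact binomial test, adjusted p = 0.0488), and those within 50 kb of Cldn4 and Dppa1 did not pass. The 2 sites of the primitive endoderm list, near Gata6 and in Hnf4a, did not pass. Unlike the Gata6 site, the Hnf4a site had more signal in mz knockouts, with 3.52 and 6.81 RPKM in the mz columns (ratio 1.93). In the pools it had 4.90 and 2.72 RPKM (ratio 0.556). Of 5 polarity and Hippo sites 1 passed, near Arhgap29, which encodes a GTPase-activating protein (chr3:122019438-122019911), with 18.2 and 6.81 RPKM in the mz columns (adjusted p = 0.0464, exact binomial test) and 7.02 and 3.40 RPKM in the pools. The others, near Lats1, Pard6b, Wwtr1 and Yap1, did not pass. For the polarity list the median log2 ratios were −0.98 and −0.66, against −0.88 and −0.37 at its other open regions. The trophectoderm sites had medians of −0.39 and −0.13, against −0.70 and −0.50, and the primitive endoderm sites −0.24 and −0.68, against −0.67 and −0.38. Calls at these lists are to be read against the 6.125% (mz) and 14.6% (inducible) of all 800 sites that were lower. Of all regions, 1.73% and 6.37% were.

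The 1 site of the 2-cell genome activation list, inside Crxos and within 50 kb of Obox6 (chr7:15882625-15882993), fell from 15.9 to 5.02 RPKM in mz knockouts (adjusted p = 0.0314, exact binomial test) and had 7.02 and 4.93 RPKM in the pools. Of the 14 sites of mitosis and genome maintenance genes, 11 were the Sfi1 sites. The others lay at Aurka, Incenp and Kif20a, and the one inside Aurka, the Aurora A kinase gene (chr2:172369438-172369613), fell from 4.73 to 1.36 RPKM in the treated pool (adjusted p = 0.0227, exact binomial test). Nuclear receptor and cofactor genes had 5 sites, of which 1 near Rxra, the gene of a heterodimer partner of many nuclear receptors (chr2:27669329-27669518), fell from 11.2 to 2.15 RPKM in mz knockouts (adjusted p = 0.0191, exact binomial test). The list's median log2 ratios were −0.48 and −0.0010, against −0.48 and −0.41 at its other open regions. For these lists too, 6.125% (mz) and 14.6% (inducible) of the 800 sites were lower, and 1.73% and 6.37% of all regions.

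Chromatin regulator genes had 12 sites, none of which passed, with median log2 ratios of −0.48 and −0.28, against −0.43 and −0.43 at its other open regions. The lists of lipid, sterol and bile acid targets, of housekeeping genes, of oocyte and maternal-effect genes and of granulosa and cumulus genes, the last as markers of another cell type, had 1, 2, 2 and 2 sites. Of these 7 entries, 2 passed, both lower in mz knockouts, as 6.125% of the 800 sites and 1.73% of all regions were, the Khdc3 promoter and a site in Syngr1 within 50 kb of Rpl3, with 16.4 and 5.02 RPKM (adjusted p = 0.0218, exact binomial test). The single lipid site lies in Lsm1 within 50 kb of Star, which is also on the granulosa list, so it stands under both. At list genes other than Sfi1, no call held under the scaling to the median log2 ratio (adjusted p from 0.152 to 0.333, exact binomial test).

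The strongest sites were spread over the genome. They had 727 different nearest protein-coding genes, of which 57 had 2 or more sites and 8 had 3 or more. Beside Sfi1 with 11 sites, these were Crxos, Hmga2, Ovol2, Ptpn3, Sarnp, Sgpp1 and Zfp703 with 3 each. At Sarnp the median ratios of the 3 sites were 0.305 (mz) and 0.307 (inducible), while at Sgpp1 they were 0.523 and 1.18. Of the 800 sites, 400 lay inside a gene (50%, against 47.7% of other open regions). Another bound region of the table lay within 10 kb of 366 sites (45.8%), against 36.6% of other open regions, 28.5% of the most weakly bound open and 56.3% of the most strongly bound closed regions. Sites with such a neighbour had a mz ratio of 0.661 and those without 0.625, a log2 difference of 0.079 (0.0040 to 0.15) that was −0.00076 (−0.081 to 0.080) without the very high sites. The inducible ratios were 0.710 and 0.648, a difference of 0.13 (0.078 to 0.19) that was 0.066 (0.0077 to 0.13) without those sites.

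Few of the sites were at listed promoters. For 32 of the 800 (4.00%) a listed start lay within 1 kb, against 6.57% of other open regions. The starts used cover 79.9% of protein-coding symbols, so sites at unlisted starts are not counted as promoter sites. On chromosome 18, 17 sites had no listed start at all. These 32 sites had ratios of 0.714 (mz, 0.645 to 0.791) and 0.770 (inducible, 0.709 to 0.836). They were higher than the other sites by 0.16 (0.0075 to 0.31) and 0.19 (0.074 to 0.32) on the log2 scale, and by 0.25 and 0.24 without the very high sites. The corresponding regions of the other open set had ratios of 0.793 and 0.872. The strongest promoter site, 93 bp from Shcbp1l (chr1:153424898-153425085, CUT&RUN 22.5 RPKM), had 10.6, 4.66, 5.39 and 4.42 RPKM. The site in the promoter of Stard10, a lipid transfer protein gene (chr7:101316565-101317021), had 14.1, 6.81, 6.53 and 3.06 RPKM, and the site at Pin1rt1 8.22, 8.25, 7.02 and 7.49 RPKM, none past the threshold. The knockout columns were thus below their controls at Shcbp1l and Stard10 and not below them at Pin1rt1. With no ratio past the threshold, loss or retention at a single promoter is not shown.

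The 31 sites whose listed position equals the summit had a mz ratio of 0.905 (0.834 to 0.983) and an inducible ratio of 0.857 (0.806 to 0.910). The 769 moved sites had 0.618 (0.601 to 0.636) and 0.662 (0.648 to 0.675). Of the 31, 7 were Sfi1 sites above 20 RPKM. Without the very high sites the remaining 24 had ratios of 0.747 (0.657 to 0.849) and 0.792 (0.718 to 0.873), and the log2 differences from moved sites shrank from 0.55 to 0.31 in the mz series (0.13 to 0.50) and from 0.37 to 0.28 in the inducible one (0.13 to 0.42).

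The recentred position lay closer to the summit of the ATAC-seq signal at the strongest sites, with a median distance of 82 bp against 113 bp in other open regions. Within 25 bp lay 17.9% of the strongest and 13.1% of other open sites, and at 500 bp or more 5.125% and 9.57%. The ratios differed little by this distance. Sites within 50 bp of the ATAC summit had ratios of 0.620 and 0.675, and those over 200 bp away 0.658 and 0.707, and without the very high sites the log2 differences were 0.023 in the mz series (−0.088 to 0.13) and −0.012 in the inducible one (−0.094 to 0.069).

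**Figure D5:**
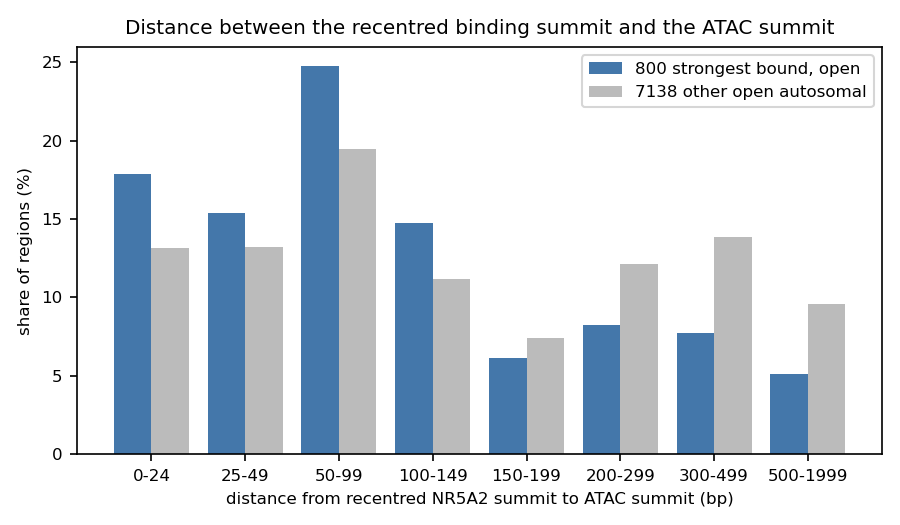
Share of sites (%) by the distance in bp from the recentred NR5A2 summit to the ATAC-seq summit, for the 800 strongest bound open sites and 7138 other open autosomal regions. The strongest sites have larger shares in each class below 150 bp and smaller shares in each class above it.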

How the data were processed

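The table holds 1 ATAC-seq value per group and region, deposited by the authors as RPKM, and an NR5A2 CUT&RUN RPKM value from an earlier study, per the file headers. Its ratio columns, knockout over control with 0.01 RPKM added to each side, and its classes of change are the authors' deposited values. Cutadapt, Bowtie2, MACS2 and mm10 are named per the submitters' processing notes, with no settings. How duplicates and the insertion shift were treated, and how embryos were merged, are not given in the sources used here. Remaining duplicate reads would make the intervals too narrow.

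ATAC-seq RPKM was a whole multiple of 1 value per column for 100% of values (within 0.0001 of a step), whatever the region's length. These steps were 0.587, 0.359, 0.163 and 0.170 RPKM for mz_NrHet, mz_NrKO and the untreated and treated pools, and 3 reads, the limit that 0 allows, equal 1.76, 1.08, 0.490 and 0.510 RPKM. CUT&RUN RPKM was divided by region length. Python 3.11.15 with scipy 1.17.1 was used. Reads of each region entered an exact binomial test (two-sided) with Benjamini-Hochberg adjustment over 16958 regions. Ratios of summed RPKM have 95% Clopper-Pearson intervals, and their log2 differences intervals from counting error. Region log2 ratios used a pseudocount of 1 RPKM. The scripts were tested on simulated data. The planned tests across embryos were not run, since the columns are merged.

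Regions were given the nearest protein-coding RefSeq gene span (GRCm38.p6, the assembly of mm10), which does not separate exons from introns. Start sites came from a RefSeq promoter table that covers 79.9% of protein-coding symbols. Regions named are the 12 with the highest CUT&RUN value, and up to 12 lower and 8 higher by adjusted p. Of sites with neither knockout column below its control, the 6 with the most control reads are named. Up to 3 per gene list by adjusted p, 2 on each side of the selection limit, and promoter sites by CUT&RUN value are also named. Regions with the smallest p and further promoter sites were added after their values were seen. The members, lists and rules were chosen with earlier results of these data known. The alternatives were other scalings, filters, set sizes, tests and the omission of very high regions.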

Additional observations from a re-analysis of the deposited data

Results flagged for a closer look

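The site inside Pank3, a pantothenate kinase gene of coenzyme A synthesis (chr11:35773514-35773688), differed between the series. Its signal went from 17.0 RPKM in heterozygotes to 2.51 RPKM in mz knockouts, a ratio of 0.147. The untreated pool had 3.43 RPKM and the treated one 4.59 RPKM, a ratio of 1.34. An exact test of the difference between both ratios gave an adjusted p of 0.0355 over all regions, for 1 of the 800 strong sites and 3 of all 16958 regions, and compares merged libraries only. The series differ in date, culture, pooling and kind of deletion, which cannot be told apart here.

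Summed over the 800 sites, the mz log2 ratio was below the inducible log2 ratio by a difference of −0.078 (95% interval −0.12 to −0.031, counting error only). The other open autosomal regions had a difference of −0.094. Whether both offsets differ was not tested.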

How the results depend on the processing

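No paired analysis was possible because the columns hold merged groups, and for the same reason no replicate was left out. Scaled to a median log2 ratio of 0 (shifts of −0.32 and −0.35) or to a summed ratio of 1 over the table, the mz ratio at the 800 sites was 0.804 and 0.963 and the inducible ratio 0.866 and 0.979. The scalings gave 7 and 3 sites lower and 2 and 5 higher in the mz series, and 23 and 13 lower and 2 and 4 higher in the inducible series. A Fisher exact test gave 3 lower and 5 higher, and 13 lower and 4 higher. Ratios under 2/3 numbered 238 in the mz series with the summed scaling, and 282 and 212 in the inducible series with the median and the summed one. No share over all regions is given beside these counts, which describe the dependence on processing only. As medians with a pseudocount of 1 the ratios were 0.664 and 0.708. Without regions above 20 RPKM they were 0.608 and 0.659, the mz ratio was 0.673 with sites ranked by CUT&RUN value times length, and the inducible ratio 0.696 for the top 400. The log2 difference from other open regions was −0.13 (mz) and −0.10 (inducible) by medians, −0.10 and −0.082 without very high regions, −0.10 within classes of control level in the inducible series, and turned to 0.00024 (mz) and 0.00020 (inducible) for the top 400. Chosen after seeing the data, leaving out very high regions moved the difference between the strongest and weakest group of 200 to −0.13 and 0.016, the summit difference to 0.31 and 0.28, the mz difference from the weakest open regions to −0.21, and the neighbour difference to −0.00076 (mz, a change of sign) and 0.066. Other causes of these changes were not tested. Of 118 adjusted p values of named regions, 20 lost and 0 gained the call under the median scaling, and 23 lost and 2 gained it under the summed one. The gains were both at the Sfi1 site chr11:3181141-3181401. Sites added after their values were seen, such as those in Irak2 and near Nme1, are not among the 118 values, nor is the Msrb1 site. Whether their calls hold under the scalings is not given here. With a median of 11 reads in each mz column, sites with no call are not shown to be unchanged.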
